A study of Mus musculus with 19 samples.

Results

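The genes described here copy DNA: 44 mouse genes of DNA replication and S phase, out of 35598 genes measured. They were taken from a list of names drawn up by function, with earlier results of these data known. They fall into 9 roles, from the loading of the helicase at replication origins to the factors that drive cells from G1 into S phase. All 44 were among the 15123 genes with enough counts to test, although a gene that is high in myoblasts alone also passes that filter. RNA came from primary mouse myoblasts, which are the precursor cells of skeletal muscle, isolated from hind-limb muscle. The cells were taken as dividing myoblasts after 24 h in growth medium, as differentiated myotubes at 48 h, or as fused myotubes at 72 h. The wild-type (WT) label covers 3, 3 and 4 libraries at these stages, and the label for loss of Glud1 (below, KO-labelled) covers 3, 2 and 4. The labels call replicates biological but do not state if each is its own animal or culture, so p-values measure the spread between these samples. Both groups' deposited files carry KO in their names, and those of one label have a T besides, so what separates the labels is taken here from the submitters' labels alone.

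Before each S phase, the origin recognition complex, Cdc6 and Cdt1 load the MCM helicase onto DNA. Cdc45, Mcm10 and the GINS complex then turn the helicase on, primase and the DNA polymerases copy both strands behind it, the sliding clamp PCNA holds the polymerases to DNA, and Fen1 and Lig1 join the fragments of the lagging strand. Most of these genes are switched on by E2F transcription factors when retinoblastoma proteins release them. Skeletal muscle cells leave the cell cycle for good as they differentiate, and myonuclei do not replicate their DNA.

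Promoter sequences are shown because many of these genes share an E2F motif. RefSeq promoter sequences of build GRCm38.p6, each running from 250 bases before to 50 bases after a gene's start, matched 36 of the 44 genes. Mcm4, Gins1, Gins2, Gins4, Prim2, Pole, Rfc2 and Ccne2 had no entry. An E2F motif, searched on both strands as TTTCCCGC, TTTCGCGC, TTTGCCGC or TTTGGCGC without mismatches, was found in 15 of the 36 genes (41.7%), against 2.6% of the 27025 genes in the table. These 15 were Orc1, Cdc6, Cdt1, Mcm3, Mcm5, Mcm6, Mcm7, Gins3, Pola1, Pold1, Rfc3, Lig1, Uhrf1, Dnmt1 and E2f2. The CCAAT box was found in 22 of the 36 (61.1%, against 41.1% of all genes), and the cell cycle homology region, searched as TTTGAA or TTCGAA, in 8 (22.2%, against 21.7%). A match describes letters in this window and is not evidence of binding. Windows around the E2F motifs of 7 genes follow, written 5′ to 3′ on the gene's strand with the motif, or its reverse complement, in capitals. They lie at chr4:108579394-108579453 (+) for Orc1, chr11:98907981-98908040 (+) for Cdc6, chr8:75109329-75109388 (+) for Mcm5, chr1:128359736-128359835 (-) for Mcm6, chr8:95633489-95633548 (+) for Gins3, chrX:93632266-93632325 (-) for Pola1 and chr4:136172294-136172323 (+) for E2f2.
Orc1: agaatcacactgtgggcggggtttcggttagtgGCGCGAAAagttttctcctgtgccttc
Cdc6: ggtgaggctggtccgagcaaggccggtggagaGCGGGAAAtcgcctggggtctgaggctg
Mcm5: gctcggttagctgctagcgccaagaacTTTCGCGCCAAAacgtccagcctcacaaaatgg
Mcm6: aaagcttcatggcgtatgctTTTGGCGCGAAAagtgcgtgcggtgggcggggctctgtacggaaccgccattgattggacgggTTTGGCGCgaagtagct
Gins3: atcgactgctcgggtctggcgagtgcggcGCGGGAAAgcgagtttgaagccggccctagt
Pola1: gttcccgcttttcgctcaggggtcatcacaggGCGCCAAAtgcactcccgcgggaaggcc
E2f2: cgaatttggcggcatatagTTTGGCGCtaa

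In Mcm5 and Mcm6 the capitals hold a pair of overlapping matches on opposite strands, and Mcm6 has another match closer to its start. The E2f2 window lies 21 to 50 bases after the RefSeq start, and before the start of E2f2 in the GENCODE annotation used for the counts. It carries the same 8 letters, TTTGGCGC, as Mcm6, but the RNA of these genes moved in opposite directions, as described below.

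Libraries held 16168131 to 30742634 estimated counts. In WT, 6 differentiated muscle markers summed to 821 to 962 CPM (counts scaled to library size with TMM factors) in myoblasts and 32100 to 37200 in differentiated myotubes. The 5 myoblast markers (Pax7, Myod1, Myf5, Des and Cdh15) did not fall as a list: they summed to 1800 to 1950 CPM in WT myoblasts, 4420 to 4790 at 48 h and 5880 to 6500 at 72 h, a sum led by Des at 48 h and 72 h, while Pax7 alone went from 98.8 to 105 CPM to 10.2 to 11.3 and 2.80 to 4.19. Of the fibroblast markers, 4 of 6 passed the count filter and summed to at most 9.76 CPM in any library, and of 4 endothelial and 4 leukocyte markers 1 each passed it (Pecam1 and Cd68), at no more than 1.58 CPM. The others of these lists, and the adipocyte markers Adipoq and Plin1, had too few counts to test. Glud1 RNA, which checks the label, was at 184 to 192 CPM in WT and 185 to 190 with the KO label in myoblasts (log2 fold change -0.02 ± 0.039, edgeR adjusted p 0.849), at 102 to 112 and 96.6 to 103 at 48 h (-0.09 ± 0.047, 0.193), and at 131 to 141 and 130 to 139 at 72 h (-0.02 ± 0.036, 0.748). Glud1 RNA therefore did not separate the labels, except when effective lengths entered the model, where its log2 fold change was -0.26, -0.31 and -0.34 at the 3 stages (edgeR adjusted p 7.02e-04, 2.45e-04 and 1.58e-05).

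Between WT myoblasts and differentiated myotubes, 43 of the 44 genes fell and only E2f2 rose (edgeR's quasi-likelihood fit, with p adjusted by Benjamini and Hochberg's method across the 15123 genes and called at under 0.05, here and below). All genes together had calls in 85.0%, 42.6% lower and 42.4% higher. The median log2 fold change of the 44 was -3.82, against 0.019 over all genes tested. The level left at 48 h had a median of 7.07% of the myoblast CPM, and 17 genes were under 5%. The least was left of Chaf1b (1.34%), Tk1 (1.49%), Mcm3 (1.52%), Cdc6 (1.70%) and Orc1 (1.88%), and among the genes that fell the most was left of Rrm1 (81.3%), Gins4 (40.3%), Rfc2 (36.7%), Gins3 (31.8%) and Rpa2 (31.1%). In bulk RNA, fewer dividing cells and less RNA per cell cannot be told apart.

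**Figure D1:**
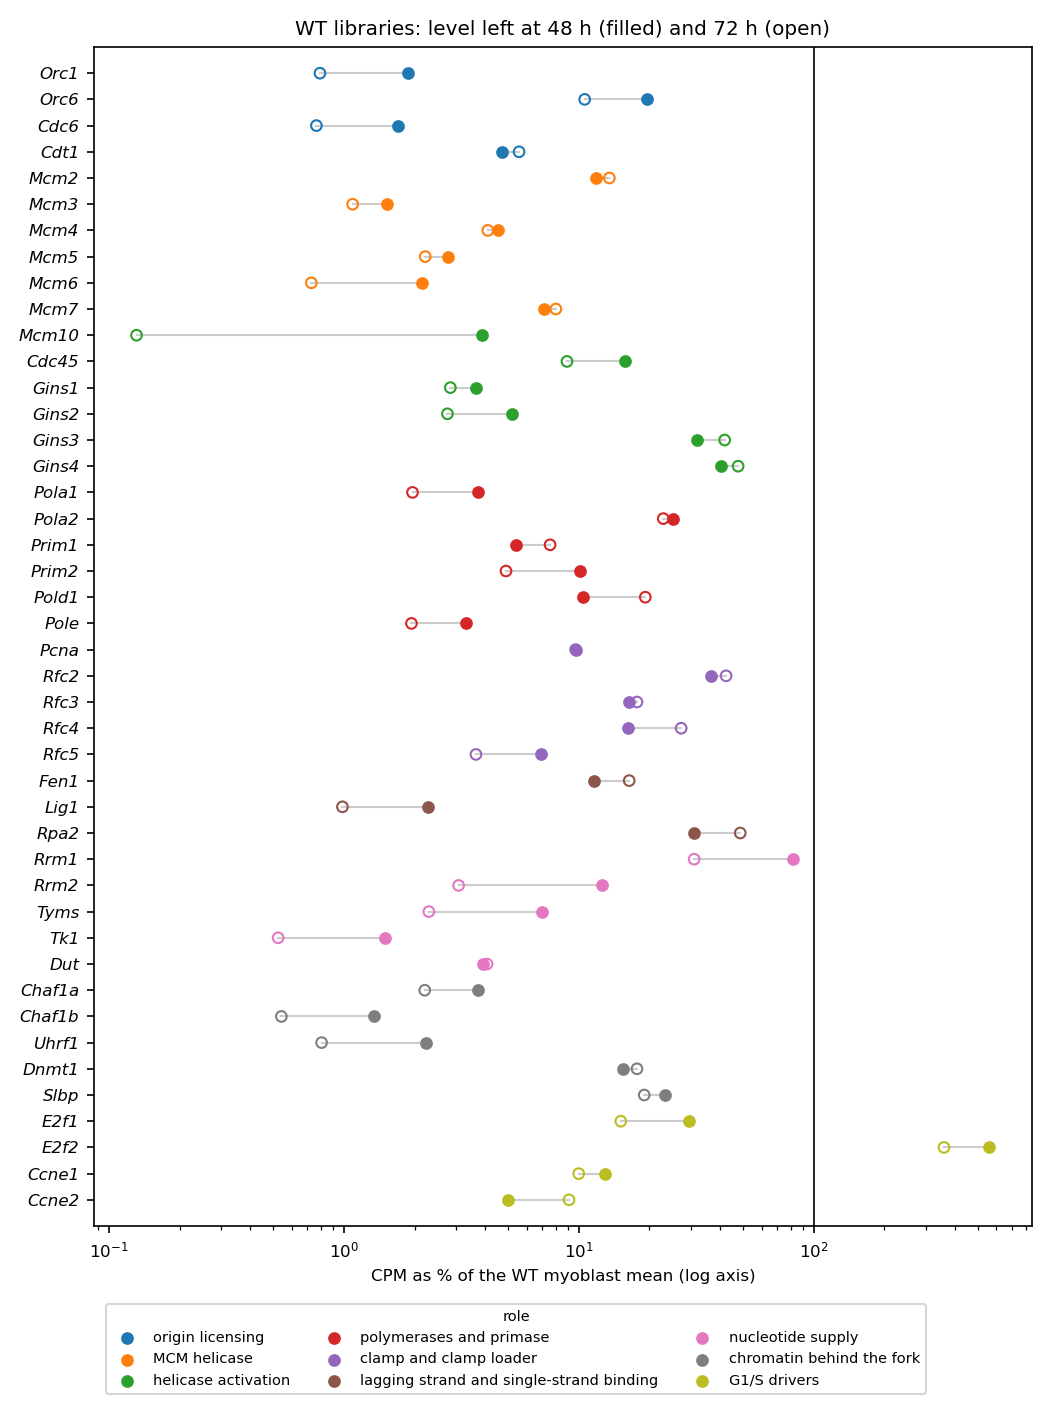
Level of each gene in WT differentiated (48 h, filled) and fused (72 h, open) myotubes as a percent of its mean CPM in WT myoblasts, on a log axis, coloured by role. At 48 h E2f2 lies right of the line at 100% and the other 43 lie left of it, with Rrm1 closest and Chaf1b farthest.

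Origin licensing genes had a median log2 fold change of -5.04, with all 4 called lower. Here and for the roles below, 42.6% of all genes were called lower by 48 h and 85.0% in either direction. Orc1 was at 8.23, 8.21 and 9.32 CPM in the WT myoblast libraries, at 0.142, 0.131 and 0.211 in WT differentiated myotubes and at 0.0457, 0, 0.185 and 0.0412 in WT fused myotubes. Cdc6 was at 30.5, 32.0 and 30.6 CPM at 24 h, 0.522, 0.566 and 0.493 at 48 h and 0.183, 0.190, 0.370 and 0.206 at 72 h. Orc1 is the largest subunit of the origin recognition complex and Cdc6 the factor that loads the helicase with it, and both were close to the limit of counting in myotubes: Orc1 had 12 counts over the 3 differentiated and 5 over the 4 fused WT libraries, and Cdc6 had 38 and 18. Orc6 was at 42.9, 39.3 and 41.3 CPM at 24 h, 8.77, 7.71 and 7.60 at 48 h and 4.52, 4.06, 4.75 and 4.08 at 72 h. Cdt1 was at 65.4, 67.4 and 71.2 CPM at 24 h, 3.37, 3.48 and 2.78 at 48 h and 3.84, 4.25, 3.27 and 3.79 at 72 h. Orc6, the smallest subunit of the complex, kept 19.5% at 48 h, and Cdt1, the partner of Cdc6 in loading, kept 4.72%. In the annotation Orc6 overlaps Vps35, Orc1 overlaps Gm12743 and Cdt1 overlaps Gm20388.

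All 6 MCM genes fell, but not to the same extent. The MCM proteins form a ring with 1 copy of each, and per length their RNA stood at 64.3 to 157 TPM, a measure that allows for transcript length, on average in WT myoblasts, lowest for Mcm5 and highest for Mcm7. In differentiated myotubes the averages ran from 1.06 TPM for Mcm3 to 10.3 for Mcm7. Mcm5 was at 108, 104 and 114 CPM at 24 h, 2.94, 2.70 and 3.45 at 48 h and 2.65, 2.16, 2.65 and 2.18 at 72 h. Mcm6 was at 169, 165 and 161 CPM at 24 h, 3.84, 3.22 and 3.66 at 48 h and 1.32, 0.888, 1.36 and 1.24 at 72 h. Mcm3 was at 124, 124 and 122 CPM at 24 h, 2.18, 1.61 and 1.83 at 48 h and 1.14, 1.84, 1.42 and 0.989 at 72 h. Of the 5 MCM genes with a promoter entry, Mcm3, Mcm5, Mcm6 and Mcm7 carry an E2F motif and Mcm2 does not. At 48 h Mcm2 and Mcm7 kept 11.9% and 7.14%, while Mcm3 and Mcm6 kept 1.52% and 2.16%. Mcm7 shares its locus with Cops6 and Ap4m1, and since the strand used in counting is not stated, its remaining counts are less certain. Mcm2 has no overlapping gene in the annotation.

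All 6 helicase activation genes fell by 48 h. Mcm10 was at 37.1, 35.6 and 36.7 CPM at 24 h, 1.28, 1.92 and 1.02 at 48 h and 0.0457, 0.0634, 0 and 0.0824 at 72 h. Mcm10, which helps to open the helicase at the origin, fell again between 48 h and 72 h (log2 fold change -4.62 ± 0.46, edgeR adjusted p 9.96e-10). The fused myotubes hold 4 counts of it over 4 libraries, against 100 in 3 differentiated libraries, so the fitted size depends on the prior count. Cdc45 was at 31.2, 31.6 and 30.0 CPM at 24 h, 5.41, 4.40 and 4.89 at 48 h and 2.24, 3.74, 2.96 and 2.10 at 72 h. Gins1 was at 10.5, 10.6 and 8.99 CPM at 24 h, 0.474, 0.348 and 0.282 at 48 h and 0.228, 0.254, 0.247 and 0.412 at 72 h. Of the 4 GINS subunits, which form 1 complex with Cdc45 and the MCM ring, Gins1 and Gins2 kept 3.67% and 5.21% at 48 h but Gins3 and Gins4 kept 31.8% and 40.3%.

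The polymerase and primase genes all fell. Pola1 was at 50.1, 52.1 and 48.3 CPM at 24 h, 2.18, 1.96 and 1.48 at 48 h and 1.19, 0.952, 1.05 and 0.742 at 72 h. Pole was at 51.1, 52.3 and 54.0 CPM at 24 h, 1.42, 2.00 and 1.80 at 48 h and 1.19, 1.08, 0.987 and 0.824 at 72 h. Pola1 and Pole are the catalytic subunits that start new strands and copy the leading strand, and both fell further by 72 h. Pold1 was at 49.2, 47.4 and 50.3 CPM at 24 h, 4.74, 5.62 and 4.89 at 48 h and 9.91, 9.64, 9.13 and 8.98 at 72 h. Prim1 was at 38.9, 36.7 and 35.5 CPM at 24 h, 1.99, 2.26 and 1.76 at 48 h and 3.11, 2.35, 2.96 and 2.76 at 72 h. Pold1, the catalytic subunit that copies the lagging strand, and Prim1, the catalytic subunit of primase, instead rose from 48 h to 72 h, by 0.89 ± 0.093 and 0.50 ± 0.15 on the log2 scale (edgeR adjusted p 2.14e-09 and 0.00406). Pold1 went back to 19.2% of its myoblast level and Prim1 to 7.55%, with no overlap of the 48 h and 72 h libraries. The accessory subunits Pola2 and Prim2 kept 25.3% and 10.1% at 48 h.

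Pcna was at 194, 192 and 195 CPM at 24 h, 19, 16.8 and 20.5 at 48 h and 18, 19.4, 18.9 and 18.7 at 72 h. Pcna, the sliding clamp, was not called between 48 h and 72 h, at 9.69% and 9.70% of its myoblast mean (log2 fold change -0.01 ± 0.062, edgeR adjusted p 0.917, 95% interval -0.13 to 0.11). Rfc4 was at 17.8, 16.9 and 16.9 CPM at 24 h, 3.23, 2.70 and 2.43 at 48 h and 4.75, 4.95, 4.75 and 4.33 at 72 h. Among the clamp loader subunits, Rfc4 and Rfc2 rose from 48 h to 72 h (0.76 ± 0.13 and 0.21 ± 0.058, edgeR adjusted p 5.61e-06 and 0.00198), Rfc3 was not called (0.14 ± 0.13) and Rfc5 fell (-0.95 ± 0.18, edgeR adjusted p 3.84e-05). Rfc2 overlaps Lat2 in the annotation, Rfc4 overlaps Eif4a2 and Rfc5 overlaps Wsb2.

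Fen1 was at 57.8, 57.2 and 58.7 CPM at 24 h, 7.07, 5.92 and 7.11 at 48 h and 9.95, 8.18, 9.87 and 10.1 at 72 h. Lig1 was at 71.3, 69.9 and 72.4 CPM at 24 h, 1.94, 1.22 and 1.72 at 48 h and 0.913, 0.761, 0.555 and 0.577 at 72 h. Rpa2 was at 32.2, 29.9 and 31.8 CPM at 24 h, 9.15, 10.9 and 9.22 at 48 h and 14.4, 16.3, 16.5 and 13.8 at 72 h. These 3 genes act on the lagging strand and on single-stranded DNA: Fen1 trims the flaps, Lig1 seals the nicks and Rpa2 is a subunit of the single-strand binding protein RPA. Fen1 and Rpa2 rose again from 48 h to 72 h, by 0.51 ± 0.083 and 0.64 ± 0.075 on the log2 scale (edgeR adjusted p 3.58e-06 and 1.99e-08), to 16.4% and 48.7% of the myoblast level. Lig1 fell further (-1.20 ± 0.20, edgeR adjusted p 6.70e-06), to 0.986%. RPA and Fen1 also serve DNA repair, which does not end with the cell cycle. A part of repair in these rises was not tested. Fen1 overlaps Tmem258 and Gm10143 in the annotation.

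Nucleotide supply held the smallest fall of the 43. Rrm1 was at 260, 265 and 256 CPM at 24 h, 221, 202 and 211 at 48 h and 78.1, 82.0, 78.8 and 83.8 at 72 h. Rrm2 was at 505, 476 and 492 CPM at 24 h, 62.8, 58.8 and 63.2 at 48 h and 13.8, 14.5, 15.9 and 16.4 at 72 h. Rrm1 and Rrm2 are the large and the S phase small subunit of ribonucleotide reductase, which makes the building blocks of DNA. At 48 h Rrm1 kept 81.3% and Rrm2 12.5%, so that their order per length reversed: Rrm1 stood at 158 ± 2.85 TPM and Rrm2 at 446 ± 7.96 in WT myoblasts (SD, n = 3), and at 119 ± 9.47 and 51.2 ± 2.40 in differentiated myotubes. The fall of Rrm1 by 48 h (-0.30 ± 0.038, edgeR adjusted p 5.80e-08) was not called once trends with length and GC content were removed (edgeR adjusted p 0.620). It fell by 1.39 ± 0.038 from 48 h to 72 h (edgeR adjusted p 1.15e-21). Rrm2b, the small subunit that serves non-dividing cells, was at 18.7 to 20.3 CPM in WT myoblasts, 19.6 to 20.4 in differentiated and 25.2 to 29.1 in fused myotubes, a rise of 0.45 ± 0.057 from 48 h to 72 h (edgeR adjusted p 9.00e-08).

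Tyms was at 64.6, 65.3 and 64.4 CPM at 24 h, 4.22, 4.75 and 4.65 at 48 h and 1.96, 1.08, 1.48 and 1.44 at 72 h. Tk1 was at 64.7, 62.9 and 67.7 CPM at 24 h, 0.949, 0.697 and 1.27 at 48 h and 0.183, 0.444, 0.370 and 0.371 at 72 h. Dut was at 62.5, 60.7 and 59.5 CPM at 24 h, 2.75, 2.26 and 2.15 at 48 h and 2.69, 2.28, 2.84 and 2.10 at 72 h. Tyms makes thymidylate, Tk1 recovers thymidine in S phase and Dut keeps uracil out of DNA. Tyms and Tk1 fell again between 48 h and 72 h (-1.58 ± 0.13 and -1.56 ± 0.31, edgeR adjusted p 3.45e-11 and 7.06e-05), whereas Dut, at 3.92% and 4.07% of its myoblast level, was not called (0.06 ± 0.14, edgeR adjusted p 0.736). Tk1 overlaps Afmid in the annotation.

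Genes that restore chromatin behind the fork fell too. Chaf1a was at 76.5, 76.2 and 80.7 CPM at 24 h, 3.08, 2.61 and 2.96 at 48 h and 1.55, 2.28, 1.36 and 1.69 at 72 h. Chaf1b was at 38.3, 37.3 and 37.5 CPM at 24 h, 0.427, 0.697 and 0.387 at 48 h and 0.137, 0.0634, 0.370 and 0.247 at 72 h. Both encode subunits of the chromatin assembly factor CAF-1, which places new nucleosomes. Uhrf1 was at 169, 173 and 171 CPM at 24 h, 4.32, 4.18 and 2.99 at 48 h and 0.913, 1.40, 1.91 and 1.28 at 72 h. Dnmt1 was at 201, 204 and 210 CPM at 24 h, 29.8, 31.1 and 34.1 at 48 h and 37.8, 34.7, 33.4 and 39.2 at 72 h. Uhrf1 guides the maintenance DNA methyltransferase Dnmt1 to copied DNA, yet their RNA parted: 0.804% of Uhrf1 and 17.7% of Dnmt1 were left at 72 h. Slbp was at 53.3, 47.5 and 47.3 CPM at 24 h, 11.1, 13.0 and 10.6 at 48 h and 9.63, 9.71, 8.94 and 9.23 at 72 h. Slbp, which binds the stem-loop of histone mRNA in S phase, kept 19% at 72 h.

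Among the G1/S drivers, E2f1 was at 36.7, 37.2 and 38.8 CPM at 24 h, 11.4, 11.8 and 10.2 at 48 h and 5.62, 6.03, 6.11 and 4.95 at 72 h. E2f2 was at 23.5, 21.4 and 23.3 CPM at 24 h, 120, 133 and 129 at 48 h and 81.7, 75.1, 77.9 and 91.5 at 72 h. The activators E2f1 and E2f2 thus moved in opposite directions in the same libraries: E2f1 fell by 1.76 ± 0.066 and E2f2 rose by 2.48 ± 0.060 on the log2 scale by 48 h (edgeR adjusted p 1.89e-19 and 8.49e-24). E2f2 then fell by 0.64 ± 0.050 to 72 h (edgeR adjusted p 6.36e-12) and stood at 560% of its myoblast level at 48 h and 359% at 72 h. Per length, E2f1 was at 19.7 ± 0.390 TPM and E2f2 at 9.01 ± 0.883 in WT myoblasts (SD, n = 3), and at 5.19 ± 0.428 and 45 ± 2.95 at 48 h. Nearly all E2f2 counts came from 1 transcript, E2f2-201, with a mean share of 97.5% to 98.2% in each of the 6 groups.

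Ccne1 was at 44.3, 44 and 41.8 CPM at 24 h, 5.36, 5.18 and 6.27 at 48 h and 4.25, 4.76, 4.44 and 3.96 at 72 h. Ccne2 was at 32.2, 29.2 and 28.9 CPM at 24 h, 1.28, 1.52 and 1.72 at 48 h and 2.79, 3.43, 2.71 and 2.02 at 72 h. Ccne1 and Ccne2 are the E cyclins, which activate Cdk2 at the entry to S phase. Ccne1 fell again from 48 h to 72 h (-0.39 ± 0.12, edgeR adjusted p 0.00669) while Ccne2 rose (0.80 ± 0.16, edgeR adjusted p 9.87e-05). Ccne2 overlaps Ints8 in the annotation.

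**Figure D2:**
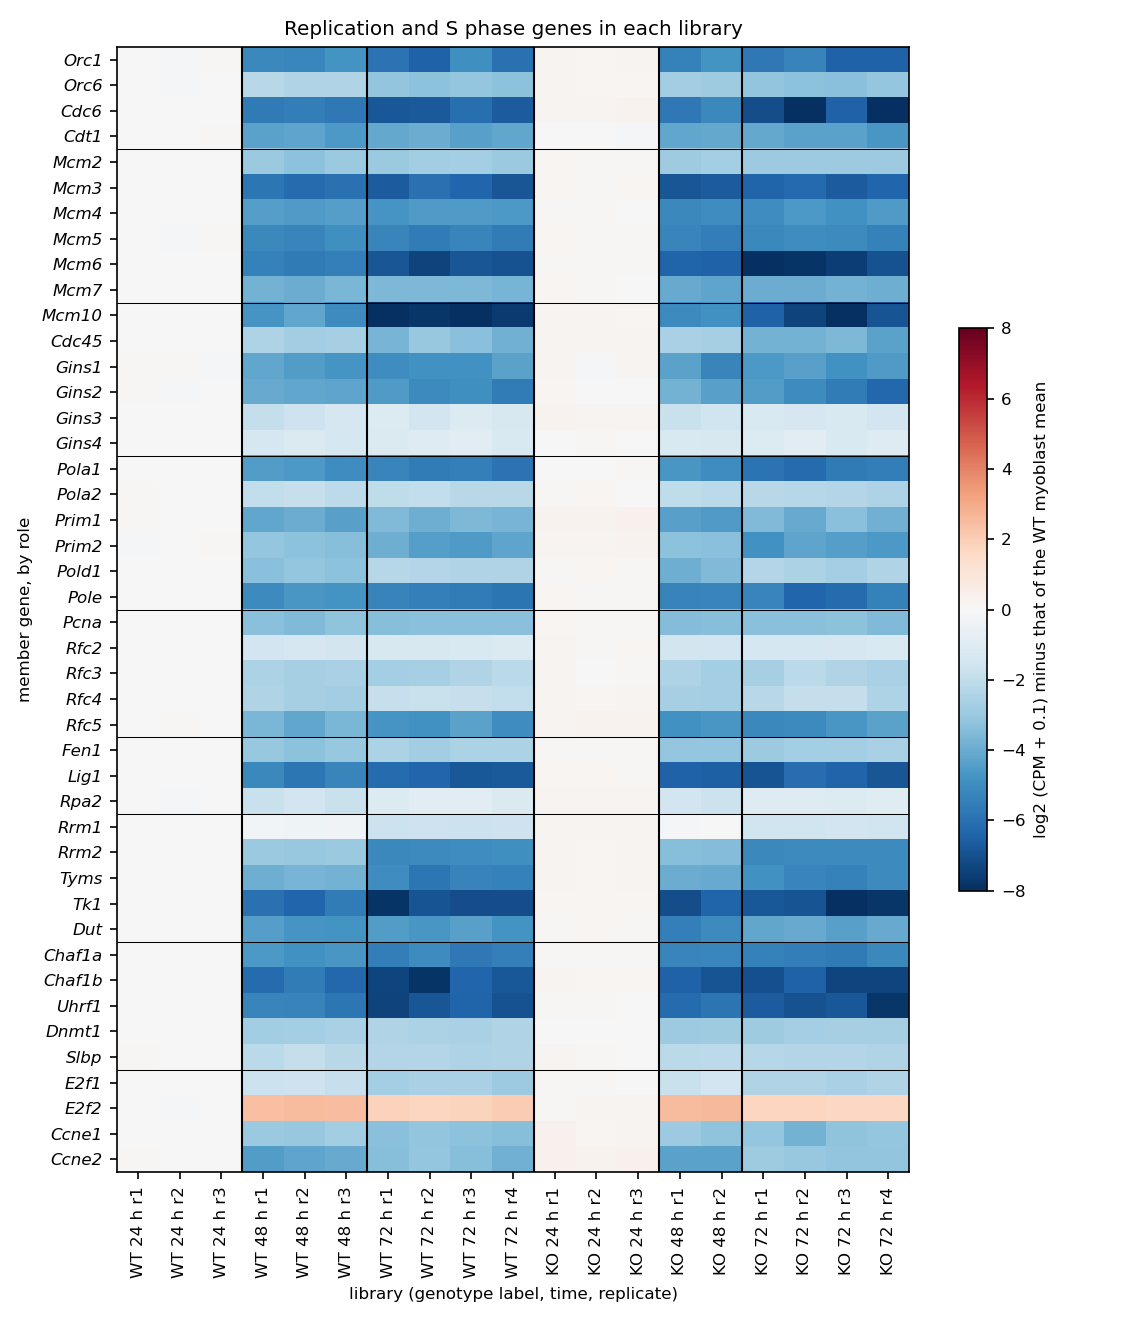
Level of each gene (rows, by role) in each of the 19 libraries (columns), as log2 of CPM plus 0.1 relative to the WT myoblast mean, where blue is lower and red is higher. The myotube columns are blue for most genes, red for E2f2 and close to white at 48 h for Rrm1, and the libraries of a group look alike except in genes with few counts such as Orc1, Cdc6 and Mcm10.

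From WT differentiated to fused myotubes, 24 of the 44 genes fell, 11 rose and 9 were not called, where 37.7% of all genes fell, 37.4% rose and 75.1% were called in either direction. The median log2 fold change was -0.46, against -0.011 over all genes. The largest falls were in Mcm10, Rrm2 (-2.02 ± 0.051), Tyms, Tk1 and Mcm6 (-1.55 ± 0.14), and the largest rises in Pold1, Ccne2, Rfc4, Rpa2 and Fen1. The others that rose were Prim1, Gins3, Gins4, Rfc2, Dnmt1 and Mcm2, of which Mcm2 kept its call in 7 of 16 alternatives. The GINS subunit Gins3 went from 2.56, 3.09 and 3.91 CPM at 48 h to 4.70, 3.36, 4.63 and 4.04 at 72 h (0.38 ± 0.13), and Gins4 from 9.58, 10.6 and 8.87 to 10.5, 11.9, 13.3 and 10.2 (0.23 ± 0.085). Rfc2 went from 15, 16.8 and 15.7 CPM to 17.7, 18, 18.5 and 19.2, and Mcm2 from 16.4, 13.3 and 16.4 to 16.1, 18.5, 19.3 and 16.2 (0.17 ± 0.072). The libraries of 48 h and 72 h overlapped in Gins3, Gins4 and Mcm2 and not in Rfc2. Of the 5 nucleotide supply genes 4 fell, and Dut was not called.

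Other genes of the pathway were read from 2 lists. Of 45 other replication genes, such as the remaining origin recognition and polymerase subunits, 41 fell and 2 rose from WT myoblasts to differentiated myotubes, with a median of -2.42, where 42.6% of all genes fell and 42.4% rose. From 48 h to 72 h 20 of them fell and 13 rose, where 37.7% of all genes fell and 37.4% rose. Of 25 genes of G1/S control, 17 fell and 7 rose by 48 h, against the same 42.6% and 42.4%. Genes that restrain the cycle went both ways: the Cdk inhibitor Cdkn1a rose from 503 to 531 CPM in WT myoblasts to 3020 to 3190 at 48 h (log2 fold change 2.57 ± 0.046, edgeR adjusted p 1.40e-26), and the retinoblastoma gene Rb1 from 43.1 to 48.4 to 287 to 299 (2.70 ± 0.047, 5.68e-27). Rbl1, of the same family, fell from 40.8 to 43.9 CPM to 2.61 to 2.85 (-3.96 ± 0.079, edgeR adjusted p 1.22e-25). Ccnd3, the D cyclin known for its presence in myotubes, also rose, from 352 to 397 to 847 to 894 CPM (1.23 ± 0.045, 1.19e-19), while Ccnd1 fell from 1160 to 1190 to 39.4 to 48.6 (-4.77 ± 0.065, 3.60e-29). The repressors E2f7 and E2f8, themselves E2F targets, fell to different degrees, with log2 fold changes of -5.11 ± 0.11 and -1.27 ± 0.050 (edgeR adjusted p 1.70e-24 and 7.99e-19).

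The 15 genes with an E2F motif had a median log2 fold change of -4.76 and the 21 without one a median of -3.07 from WT myoblasts to differentiated myotubes. Every gene of both sets was called, as were 85.0% of all genes. Their ranges overlapped, from -6.05 to 2.48 with and from -6.23 to -0.30 without a motif.

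The KO-labelled libraries went the same way as WT from 24 h to 48 h, with the same 43 genes lower and E2f2 higher, where 42.5% of all genes were lower, 41.3% higher and 83.7% called in either direction. The median log2 fold change was -4.16 (-0.004 over all genes), and the median level left was 5.60% of KO-labelled myoblasts. The largest falls were in Chaf1b (-7.30), Tk1 (-7.10), Mcm3 (-7.04), Lig1 (-6.82) and Mcm6 (-6.61). E2f2 was at 24.6, 26.2 and 26.5 CPM in KO-labelled myoblasts, 131 and 140 in differentiated and 73.9, 75.2, 72.5 and 72.4 in fused myotubes. With length and GC trends removed, Rrm1 was higher rather than lower at 48 h (log2 fold change 0.10, edgeR adjusted p 0.0182, against -0.29 ± 0.043 and 5.38e-07). From 48 h to 72 h, 16 of the 44 fell and 10 rose, where 34.4% of all genes fell, 35.8% rose and 70.2% were called. The rises were led by Ccne2 (1.29 ± 0.20), Pold1 (1.22 ± 0.13), Dut (1.16 ± 0.18), Prim1 (0.85 ± 0.19) and Rfc4 (0.63 ± 0.16), and the falls by Mcm10 (-2.89 ± 0.47, 10 counts in 4 libraries), Cdc6 (-2.47 ± 0.52), Rrm2 (-1.66 ± 0.062), Rrm1 (-1.50 ± 0.042) and Gins2 (-1.30 ± 0.34).

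Among the KO-labelled libraries, Chaf1b was at 43.6, 42.1 and 41.7 CPM at 24 h, 0.321 and 0.210 at 48 h and 0.188, 0.334, 0.128 and 0.133 at 72 h. Tk1 was at 73.0, 72.6 and 74.0 CPM at 24 h, 0.374 and 0.681 at 48 h and 0.502, 0.445, 0.128 and 0.200 at 72 h. Mcm3 was at 140, 133 and 136 CPM at 24 h, 0.963 and 1.10 at 48 h and 1.38, 1.56, 1.11 and 1.40 at 72 h. These 3 genes had the largest falls by 48 h. Lig1 was at 78.3, 79.1 and 77.1 CPM at 24 h, 0.695 and 0.681 at 48 h and 0.502, 0.945, 0.724 and 0.533 at 72 h. Mcm6 was at 179, 175 and 173 CPM at 24 h, 1.87 and 1.73 at 48 h and 0.565, 0.612, 0.809 and 1.20 at 72 h. The 48 h and 72 h libraries overlapped for Lig1 and not for Mcm6. Ccne2 was at 37.6, 36.3 and 38.9 CPM at 24 h, 1.44 and 1.47 at 48 h and 4.08, 3.67, 3.32 and 3.26 at 72 h. Pold1 was at 51.7, 54.3 and 51.2 CPM at 24 h, 3.16 and 4.14 at 48 h and 9.54, 8.45, 7.37 and 9.06 at 72 h. Dut was at 65.5, 68.6 and 66.2 CPM at 24 h, 1.28 and 1.68 at 48 h and 3.32, 3.67, 2.85 and 3.60 at 72 h. The E cyclin Ccne2, the polymerase subunit Pold1 and Dut were higher in each fused than in each differentiated library. Prim1 was at 45.5, 44.6 and 46.1 CPM at 24 h, 1.71 and 1.52 at 48 h and 3.07, 2.22, 3.58 and 2.53 at 72 h. Rfc4 was at 20.2, 19.2 and 20.1 CPM at 24 h, 2.67 and 2.52 at 48 h and 3.64, 4.56, 4.60 and 3.00 at 72 h. Mcm10 was at 42.6, 41.6 and 41.3 CPM at 24 h, 0.963 and 1.15 at 48 h and 0.314, 0.111, 0 and 0.200 at 72 h. Prim1 and Rfc4 rose after 48 h while Mcm10 fell. The other primase gene, Prim2, fell (-1.24 ± 0.20, edgeR adjusted p 4.46e-06). Rfc4 was the 1 gene called of the 5 for the clamp and its loader, where 70.2% of all genes were called. Rpa2 was at 37.2, 36.1 and 36.0 CPM at 24 h, 10.7 and 9.49 at 48 h and 15.2, 15.3, 14.9 and 15.9 at 72 h. Fen1 was at 61.6, 61.5 and 61.0 CPM at 24 h, 6.74 and 6.71 at 48 h and 7.65, 8.73, 8.86 and 9.66 at 72 h. Gins3 was at 12, 11.6 and 11.7 CPM at 24 h, 2.78 and 3.25 at 48 h and 4.27, 3.95, 4.22 and 3.40 at 72 h. These 3 rose after 48 h as well, without overlap (0.60 ± 0.090, 0.38 ± 0.10 and 0.40 ± 0.16, edgeR adjusted p 1.35e-06, 0.00203 and 0.0327). Of the MCM genes, Mcm4 went from 3.64 and 4.19 CPM at 48 h to 4.14, 5.39, 4.68 and 5.79 at 72 h, with overlap, and Mcm7 from 10.2 and 9.12 to 10.6, 10.8, 11.9 and 11.2, without (0.34 ± 0.12 and 0.21 ± 0.092, edgeR adjusted p 0.0203 and 0.0438). Cdc6 was at 36.6, 35.8 and 37.1 CPM at 24 h, 0.481 and 0.786 at 48 h and 0.125, 0, 0.256 and 0 at 72 h. Gins2 was at 25.2, 23.3 and 23.0 CPM at 24 h, 1.55 and 1.05 at 48 h and 0.941, 0.612, 0.383 and 0.200 at 72 h. Cdc6 and the GINS subunit Gins2 fell with few counts behind them, 8 for Cdc6 in the 4 fused libraries. Rrm1 was at 308, 298 and 303 CPM at 24 h, 240 and 254 at 48 h and 86.7, 86.9, 90.7 and 84.7 at 72 h. Rrm2 was at 581, 559 and 564 CPM at 24 h, 45.3 and 43.7 at 48 h and 13.7, 14, 14.2 and 14.3 at 72 h. Both subunits of ribonucleotide reductase fell from 48 h to 72 h with no overlap of the libraries. Mcm5 was at 121, 118 and 118 CPM at 24 h, 2.67 and 2.25 at 48 h and 2.95, 3.34, 3.11 and 2.46 at 72 h, with overlapping myotube libraries.

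In myoblasts, 14 of the 44 genes were higher in KO-labelled than in WT libraries, where 4.86% of all genes were called higher, 6.69% lower and 11.6% in either direction. No member was called lower, none had an unadjusted p under 0.05 in that direction in edgeR or in DESeq2, and 30 had one in the higher direction in edgeR and 23 in DESeq2. The differences were small: the median log2 fold change was 0.13 (0.014 over all genes), the range was -0.03 to 0.32, and 43 of the 44 lay above 0, with Cdt1 below. In 35 of the 44, all 3 KO-labelled libraries lay above all 3 WT libraries, as they did in 17.8% of all genes.

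The 5 largest called rises were in Ccne2, Prim1, Ccne1, Rfc5 and Cdc6. Ccne2 was at 32.2, 29.2 and 28.9 CPM in WT and 37.6, 36.3 and 38.9 in KO-labelled myoblasts (1.25-fold, log2 fold change 0.32 ± 0.065, edgeR adjusted p 0.00151). Prim1 was at 45.5, 44.6 and 46.1 CPM in KO-labelled myoblasts (0.30 ± 0.060, edgeR adjusted p 0.00135). Ccne1 was at 55.7, 49.1 and 50.9 (0.26 ± 0.065, edgeR adjusted p 0.00862). In each of these the groups did not overlap. Rfc5 was at 36.2, 39.6 and 35.8 CPM in WT and 43.4, 44.4 and 44.9 in KO-labelled myoblasts, and Cdc6 at 36.6, 35.8 and 37.1 with the KO label (edgeR adjusted p 0.0124 and 0.0279). Prim2 was at 23.5, 23.8 and 26.4 CPM in WT and 28.7, 28.2 and 29.4 with the KO label (0.23 ± 0.065, edgeR adjusted p 0.0221). Calls are given next by role, where 4.86% of all genes were called higher and 11.6% in either direction. Nucleotide supply had 3 of 5 called (Rrm1, Rrm2 and Tyms), origin licensing and the G1/S drivers 2 of 4 each, the clamp and its loader 2 of 5 and the polymerases and primase 2 of 6 (Prim1 and Prim2). The lagging strand genes had 1 of 3 called, and the MCM genes and the helicase activators 1 of 6 each. The 5 chromatin genes, with log2 fold changes of 0.02 to 0.17, were not called in edgeR. Rrm1 went from 260, 265 and 256 to 308, 298 and 303 CPM, Rrm2 from 505, 476 and 492 to 581, 559 and 564, and Tyms from 64.6, 65.3 and 64.4 to 75.9, 72.6 and 75.9. The others called were Orc6, Mcm3, Cdc45, Rfc2 and Rpa2, with log2 fold changes of 0.14 to 0.22.

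The count depended on the model. It was 1 (Rrm2) when effective lengths entered as an offset and 27 when only the 6 myoblast libraries were fitted, and 6 to 9 when 1 library was left out. Other markers moved at the same stage: 5 cycling genes outside the list (Mki67, Top2a, Cdk1, Ccnb1 and Aurkb) summed to 1020 to 1070 CPM in WT and 1130 to 1170 with the KO label in myoblasts, 6 differentiated muscle markers to 821 to 962 and 499 to 569, 4 fibroblast markers to 9.08 to 9.76 and 5.56 to 6.61, and the 5 myoblast markers to 1800 to 1950 and 1650 to 1730. Of these 5, on library totals, Des (816 to 909 in WT, 674 to 720 with the KO label) and Cdh15 (292 to 307 and 275 to 286) did not overlap, and Pax7, Myod1 and Myf5 did. Myog was at 104 to 119 CPM in WT and 64.6 to 82.5 with the KO label in myoblasts (log2 fold change -0.63 ± 0.071, edgeR adjusted p 4.11e-07). The part of these markers in the result was not tested. Where 4.86% of all genes were higher and 6.69% lower, with a median log2 fold change of 0.014, 15 of the 45 other replication genes were higher (median 0.14), and 8 of the 25 G1/S control genes were higher and 3 lower (median 0.08), among the latter Cdkn1a (-0.15 ± 0.044, edgeR adjusted p 0.0241) and Ccnd3 (-0.23 ± 0.045, 0.00109).

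**Figure D3:**
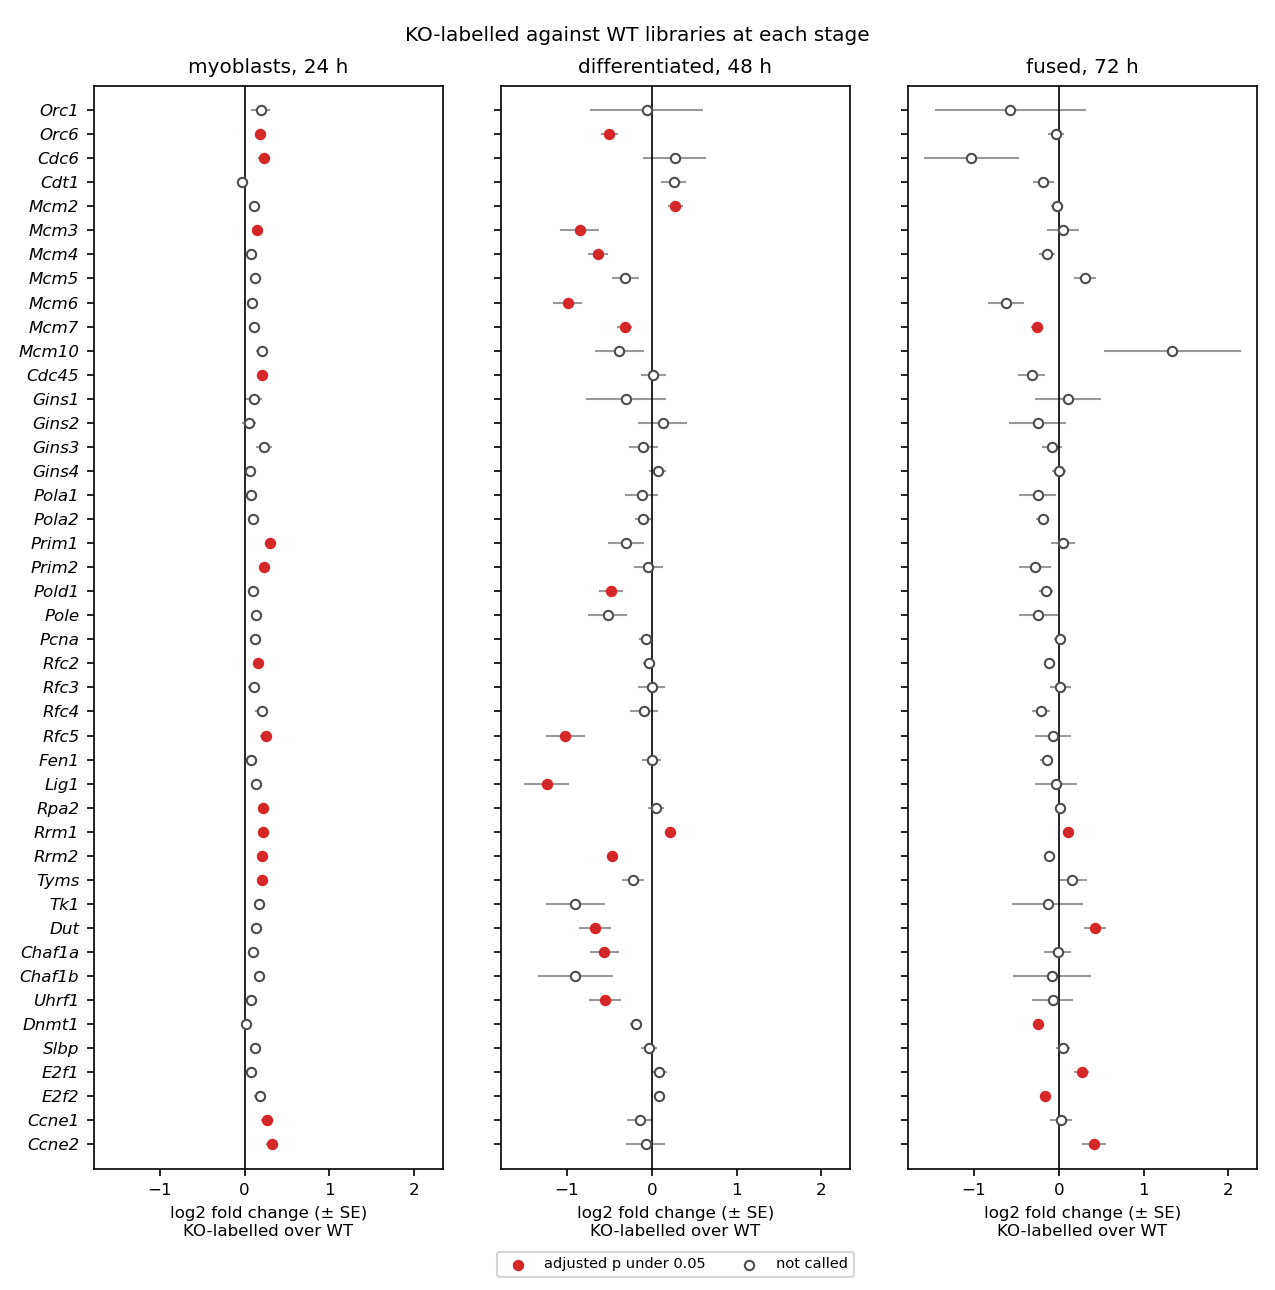
Log2 fold change of KO-labelled over WT libraries (points, with standard errors) for each gene at 24 h, 48 h and 72 h, where red points are called at an adjusted p under 0.05. At 24 h 43 of 44 points lie right of 0, at 48 h the called points other than Mcm2 and Rrm1 lie left of it, and at 72 h 7 points are called, on both sides.

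In differentiated myotubes the direction turned for part of the list: 12 of the 44 genes were lower in KO-labelled libraries and 2 were higher, where 14.1% of all genes were called lower, 11.0% higher and 25.2% in either direction. The median log2 fold change was -0.13 (-0.012 over all genes). All KO-labelled libraries lay below all WT libraries in 19 of the 44 (24.6% of all genes) and above in 3 (21.9%). This comparison rests on 2 KO-labelled libraries.

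Among the genes called, Lig1, Rfc5, Mcm6, Mcm3 and Dut differed most. Tk1 (-0.90 ± 0.35, edgeR adjusted p 0.0613) and Chaf1b (-0.90 ± 0.44, edgeR adjusted p 0.166) had larger fold changes than Mcm3 and Dut but were not called. Lig1 was at 1.94, 1.22 and 1.72 CPM in WT and 0.695 and 0.681 in KO-labelled differentiated myotubes (2.36-fold lower, log2 fold change -1.24 ± 0.26, edgeR adjusted p 6.37e-04). Rfc5 was at 2.80, 1.96 and 2.92 CPM in WT and 1.18 and 1.36 with the KO label (-1.02 ± 0.23, edgeR adjusted p 0.00146). Mcm6 was at 3.84, 3.22 and 3.66 CPM in WT and 1.87 and 1.73 with the KO label (-0.99 ± 0.17, edgeR adjusted p 5.66e-05). The groups do not overlap in these 3, and each KO-labelled library is below the lowest WT library. Mcm3 was at 2.18, 1.61 and 1.83 CPM in WT and 0.963 and 1.10 with the KO label (-0.85 ± 0.23, edgeR adjusted p 0.00618), and Dut at 2.75, 2.26 and 2.15 CPM in WT and 1.28 and 1.68 with the KO label (-0.67 ± 0.19, edgeR adjusted p 0.0104). Lig1 overlaps Zswim9 and Rfc5 overlaps Wsb2, so reads of these neighbours may enter their counts.

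Rrm2 had the smallest p of the list, with 62.8, 58.8 and 63.2 CPM in WT and 45.3 and 43.7 in KO-labelled libraries (-0.47 ± 0.054, edgeR adjusted p 2.57e-07). Its partner subunit went the other way: Rrm1 was at 221, 202 and 211 CPM in WT and 240 and 254 in KO-labelled libraries (0.22 ± 0.043, edgeR adjusted p 2.82e-04). Mcm2 was likewise higher, with 16.4, 13.3 and 16.4 CPM in WT and 18 and 19.3 with the KO label (0.28 ± 0.085, edgeR adjusted p 0.0166), while 4 of the other 5 MCM genes were lower. Orc6 was at 8.77, 7.71 and 7.60 CPM in WT and 5.78 and 5.56 with the KO label, Mcm4 at 6.26, 5.79 and 6.20 CPM in WT and 3.64 and 4.19 with the KO label, and Mcm7 at 12.2, 10.6 and 13.2 CPM in WT and 10.2 and 9.12 with the KO label. Pold1, Chaf1a and Uhrf1 completed the calls, with log2 fold changes of -0.48, -0.56 and -0.55. E2f2, the 1 gene that rose into differentiation, was not called (0.09 ± 0.058, edgeR adjusted p 0.284).

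The calls for Orc6, Mcm6, Rfc5, Lig1 and Rrm2 held in each of the 14 alternatives tried. Those for Mcm3, Mcm4, Mcm7, Pold1, Chaf1a, Uhrf1, Mcm2 and Rrm1 were lost when effective lengths entered as an offset, which left 6 calls, all lower. Of these alternatives, 2 leave a single KO-labelled library at 48 h, which is then assumed to vary as much as the libraries of the other groups, here and below. Without KO-labelled replicate 1, 9 calls were left. Markers of dividing cells moved in the same libraries: the 5 cycling genes summed to 19.4 to 24.1 CPM in WT and 6.47 to 7.18 in KO-labelled libraries, with Mki67 at 4.09 to 5.07 and 0.588 to 0.996 (-2.55 ± 0.26, edgeR adjusted p 4.35e-08), and Pax7 was at 10.2 to 11.3 and 5.08 to 6.19 (-0.92 ± 0.14, 1.01e-05). The 5 myoblast markers together, Pax7 among them, summed to 4420 to 4790 CPM in WT and 4430 to 4950 in KO-labelled libraries, a sum led by Des. Taken 1 by 1, and as CPM on library totals without TMM factors, Myod1 (748 to 854 in WT, 610 to 613 with the KO label) and Myf5 (55.9 to 66.5 and 50.6 to 52.2) were lower in each KO-labelled library, as Pax7 was, while Des (2740 to 2950 and 2810 to 3060) and Cdh15 (700 to 795 and 714 to 819) overlapped. The 4 fibroblast markers that could be tested summed to 1.70 to 2.37 CPM in WT and 1.21 to 1.28 in KO-labelled libraries, which do not overlap. The 6 differentiated muscle markers summed to 32100 to 37200 CPM in WT and 33400 to 37700 in KO-labelled libraries, a sum led by Myh3 and Acta1. On library totals, Mymk (1630 to 1750 in WT, 1890 to 2050 with the KO label) and Tnnt3 (1290 to 1340 and 1620 to 1700) were higher in each KO-labelled library, while Myog, Myh3, Ckm and Acta1 overlapped. The part of these markers in the result was not tested. Ccnd1 was at 39.4 to 48.6 and 10.5 to 12.5 CPM (-1.91 ± 0.098, 8.13e-14), and E2f7 was lower as well (-1.14 ± 0.34, 0.0136), while E2f8 was higher (0.32 ± 0.061, 3.12e-04). Where 14.1% of all genes were lower and 11.0% higher, 9 of the 45 other replication genes were lower and 3 higher, and 8 of the 25 G1/S control genes were lower and 6 higher.

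The change of the genotype difference from 24 h to 48 h was tested as an interaction. It was lower at 48 h for 14 of the 44 genes, where 11.3% of all genes were called lower, 7.78% higher and 19.1% in either direction. None was called higher, and at an unadjusted p under 0.05 edgeR had 22 lower and 0 higher, and DESeq2 19 lower and 1 higher. The median was -0.36 (-0.030 over all genes). The 14 were Orc6, Mcm3, Mcm4, Mcm6, Mcm7, Pold1, Rfc5, Lig1, Rrm2, Tyms, Tk1, Dut, Chaf1a and Uhrf1. The largest were Lig1 (-1.37 ± 0.26, edgeR adjusted p 3.52e-04), Rfc5 (-1.27 ± 0.24, 3.04e-04), Mcm6 (-1.08 ± 0.17, 3.87e-05), Tk1 (-1.07 ± 0.35, 0.0332) and Mcm3 (-0.99 ± 0.23, 0.00264). For Tk1, with 0.949, 0.697 and 1.27 CPM in WT and 0.374 and 0.681 in KO-labelled libraries at 48 h, the call was lost without WT replicate 3 or KO-labelled replicate 1 at that stage. Without KO-labelled replicate 1 at 48 h, which leaves 1 library in that group, 8 calls were left.

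**Figure D4:**
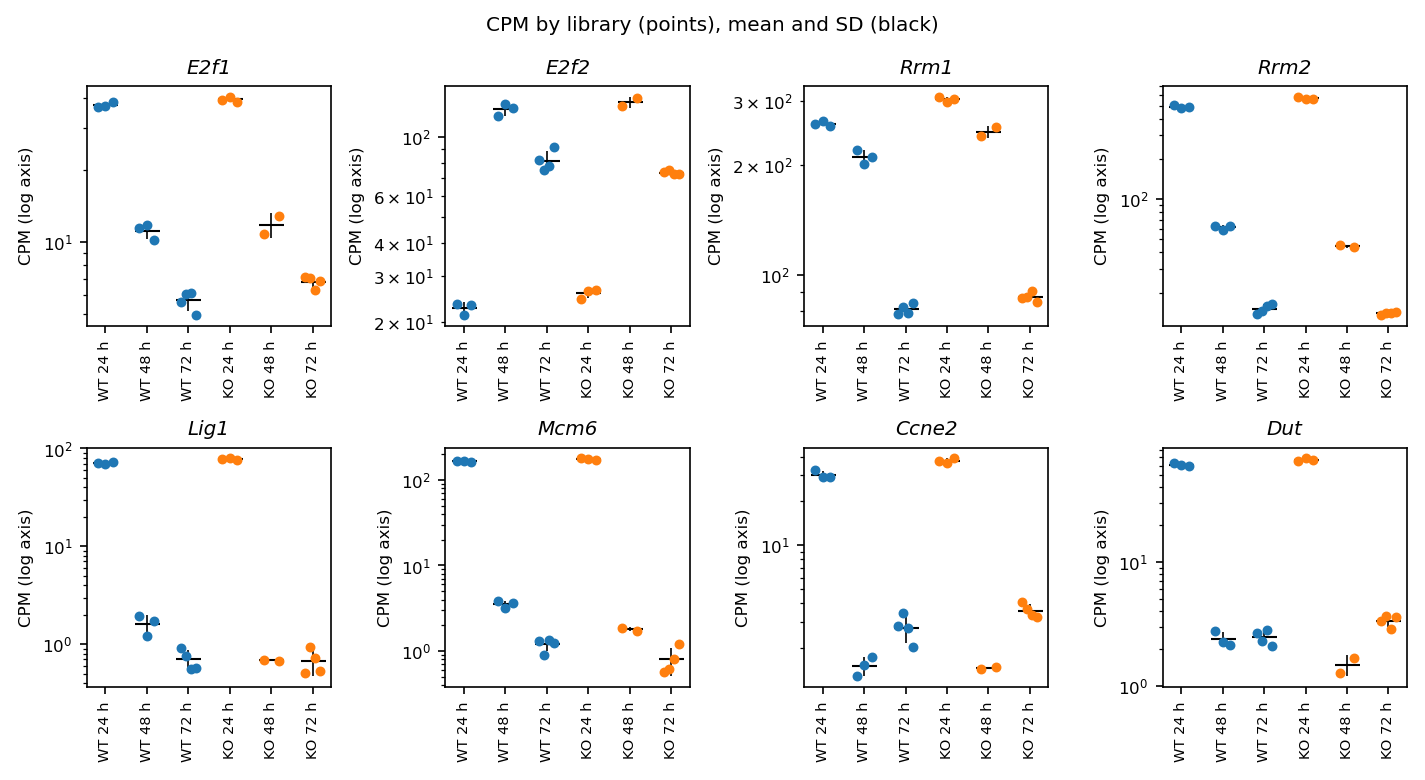
CPM of 8 genes in each library (points, WT blue and KO-labelled orange) with the group mean and SD in black, each panel on its own log axis. E2f2 rises from 24 h to 48 h where the other 7 fall, Rrm1 falls mainly after 48 h, and Rrm2, Lig1, Mcm6 and Dut lie lower in the KO-labelled than in the WT libraries at 48 h.

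In fused myotubes 7 of the 44 genes were called, 4 of them higher with the KO label and 3 lower, where 6.32% of all genes were called higher, 6.72% lower and 13.0% in either direction. The groups did not overlap in 3 genes that were higher and 2 that were lower with the KO label (7.85% and 7.99% of all genes). Dnmt1 was at 37.8, 34.7, 33.4 and 39.2 CPM in WT and 28.9, 30.5, 32.3 and 32.0 in KO-labelled libraries (-0.24 ± 0.054, edgeR adjusted p 0.00342), and Mcm7 at 13.7, 13.6, 13.9 and 12.5 CPM in WT and 10.6, 10.8, 11.9 and 11.2 with the KO label (-0.26 ± 0.070, 0.0142). E2f2 was at 81.7, 75.1, 77.9 and 91.5 CPM in WT and 73.9, 75.2, 72.5 and 72.4 with the KO label (-0.16 ± 0.049, 0.0345). The groups did not overlap in Dnmt1 and Mcm7, and they overlapped in E2f2. Dut was higher, at 3.32, 3.67, 2.85 and 3.60 CPM in KO-labelled and 2.69, 2.28, 2.84 and 2.10 in WT libraries (0.43 ± 0.13, edgeR adjusted p 0.0213), as was Ccne2, at 4.08, 3.67, 3.32 and 3.26 CPM with the KO label and 2.79, 3.43, 2.71 and 2.02 in WT (0.42 ± 0.14, 0.0416). E2f1 was at 7.09, 7.06, 6.26 and 6.86 CPM in KO-labelled and 5.62, 6.03, 6.11 and 4.95 in WT libraries (0.27 ± 0.091, 0.0472), and Rrm1 at 86.7, 86.9, 90.7 and 84.7 CPM with the KO label and 78.1, 82.0, 78.8 and 83.8 in WT (0.11 ± 0.038, 0.0457). Dnmt1 and Mcm7 kept their calls in 16 of 17 alternatives and were lost with the effective length offset, which left 0 calls in edgeR (9 at an unadjusted p under 0.05), and DESeq2, run without the offset, had 6 against 7 in edgeR. The other calls were less stable: Dut kept its call in 12 of 17 alternatives, E2f2 in 9, Rrm1 and Ccne2 in 8 each and E2f1 in 6. Without KO-labelled replicate 2, 2 calls were left, and without WT replicate 1, WT replicate 4 or KO-labelled replicate 1, 3 were left.

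From 48 h to 72 h the genotype difference moved up for 8 genes and down for E2f2, where 8.27% of all genes moved up, 6.53% down and 14.8% in either direction. The 8 were Orc6, Mcm3, Mcm4, Mcm5, Rfc5, Lig1, Rrm2 and Dut, and 7 of them had been called lower at 48 h. Lig1 had the largest value (1.21 ± 0.37, edgeR adjusted p 0.0281), followed by Dut (1.10 ± 0.23, 0.00130), Rfc5 (0.95 ± 0.32, 0.0444), Mcm3 (0.90 ± 0.30, 0.0419) and Mcm5 (0.63 ± 0.20, 0.0398). These comparisons share the 48 h libraries with the ones before. Summed over all 44 genes, levels were 3430 to 3490 CPM in WT and 3780 to 3890 with the KO label in myoblasts, 629 to 643 and 633 to 655 at 48 h, where they overlap, and 407 to 420 and 393 to 399 at 72 h. At 48 h E2f2 and Rrm1 made up much of that sum. Without these genes, which both had fold changes above 0 at 48 h, levels of the other 42 were 3140 to 3210 CPM in WT and 3450 to 3560 with the KO label in myoblasts, 294 to 303 and 261 to 262 at 48 h, and 244 to 255 and 235 to 236 at 72 h. That the sums part at 48 h depends on the choice of genes left out. Rrm2 weighs most in the sum that is left, with means of 61.6 CPM in WT and 44.5 with the KO label at 48 h. Rrm2 and Dut were called in each of the 22 alternatives. The number of genes called was 3 when only the libraries compared were fitted, and 3 without WT replicate 1, KO-labelled replicate 1 or KO-labelled replicate 2 at 48 h. It was 4 without WT replicate 4 at 72 h, and 5 without WT replicate 3 at 48 h or KO-labelled replicate 2 or 4 at 72 h. Genes outside the 9 were called as well: 2 without KO-labelled replicate 3 at 72 h and 2 with length and GC trends removed, and 1 each without WT replicate 1 or 3 at 48 h, without WT replicate 1 or 4 at 72 h, with the replicate block and with DESeq2. Rfc5, one of the 8, was at 1.32, 1.21, 1.79 and 1.11 CPM in WT and 0.941, 1.00, 1.36 and 1.80 in KO-labelled fused myotubes.

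The transcript that held most counts was the same in all groups with at least 50 counts per library in 39 genes and differed in 5: Cdc45, Chaf1b, E2f1, Tyms and Uhrf1. Only 20 of the 44 reached that count in all 6 groups, so for the others not every stage could be compared. The 5 were singled out after their values were seen and no test was made. For E2f1 and Cdc45 only KO-labelled myoblasts differed, with shares close to each other. E2f1-202 held 51.8% ± 7.02 there and E2f1-201 48.2% ± 7.02, and Cdc45-201 held 52.1% ± 3.33 and Cdc45-202 47.5% ± 3.03 (SD, n = 3). In WT, E2f1-201 and Cdc45-202 led at each stage with that count. E2f1-201 held 53.0% ± 3.20 of E2f1 counts in WT myoblasts, 76.4% ± 17.6 at 48 h (SD, n = 3) and 74.8% ± 24.3 at 72 h (SD, n = 4). In Cdc45, Cdc45-202 held 51.9% ± 4.31 and 81.3% ± 11.7 at 24 h and 48 h (SD, n = 3). Tyms-205, annotated as a target of nonsense-mediated decay, held 40.2% ± 1.58 of Tyms counts in WT myoblasts and 12.4% ± 8.37 in differentiated myotubes (SD, n = 3). The spread between libraries widened as counts fell, and the lowest WT library held 89 counts of Tyms at 48 h.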

How the data were processed

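Messenger RNA libraries (Illumina TruSeq, polyA-selected, per the labels' protocols) were measured in 19 samples. The deposited files hold, per transcript, the estimated counts, the TPM and the effective length as the authors' quantification gave them, per the file headers. The submitters' processing notes name bcl2fastq 2.20, fastp 0.20.0, kallisto 0.46.1, edgeR 3.36 and the build GRCm38.p6. Of 121843 transcripts, 121018 matched GENCODE M21, and the 825 unmatched held 0.255% to 0.507% of counts per library. Estimated counts were summed per gene and rounded. All 19 libraries entered 1 edgeR 4.0.16 quasi-likelihood fit (R 4.3.3) with a term per group, TMM factors and edgeR's filter on low counts, and p-values were adjusted by Benjamini-Hochberg over the 15123 genes tested. The common coefficient of variation between replicates was 4.03%. Totals of 16168131 to 30742634 counts per library limit precision for genes at under 1 CPM. CPM levels use TMM factors, and TPM levels were summed from the deposited TPM. The fitting was tested on simulated data. Alternatives were other scaling, filters, an effective length offset, removal of length and GC trends, fewer libraries, a replicate block and DESeq2 1.42.0. Deviations from the group means were correlated between same-numbered libraries of different groups (41 pairs, r from -0.176 to 0.167, 8 over 0.1). Among pairs with different numbers, 19 of 108 were over 0.1 as well (r from -0.239 to 0.251). All 3 pairs of WT myoblasts and WT differentiated myotubes were over 0.1 (0.167, 0.118 and 0.151), but such correlations cannot settle if the numbers mark pairs. In the other comparisons at least 1 pair was under 0.1. The labels do not say what a number marks. The strand used in counting is not given in the sources used here, and 19 of the 44 genes overlap another annotated gene. All 44 genes were described. Values in each library were given for listed genes and, in each comparison, for the 5 called genes with the largest rise and fall and those called against the majority. The members and lists were chosen with earlier results of these data known.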

Additional observations from a re-analysis of the deposited data

Results flagged for a closer look

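Among the groups of 4 fused libraries, 3 of 88 checks found 1 library far from the other 3. Cdc6 was at 0.370 CPM in WT fused replicate 3, against 0.183 to 0.206 in the others. Gins1 was at 0.412 CPM in WT fused replicate 4, against 0.228 to 0.254. Fen1 was at 8.18 CPM in WT fused replicate 2, against 9.87 to 10.1. Chance gives such a gap in about 1 in 20 groups.

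The difference between KO-labelled and WT libraries changed from 24 h to 48 h for 14 genes. Their interaction terms on the log2 scale, with standard error and edgeR adjusted p, were Orc6 (-0.67 ± 0.11, 7.65e-05), Mcm3 (-0.99 ± 0.23, 0.00264), Mcm4 (-0.71 ± 0.12, 1.43e-04), Mcm6 (-1.08 ± 0.17, 3.87e-05), Mcm7 (-0.43 ± 0.10, 0.00277), Pold1 (-0.57 ± 0.15, 0.00687), Rfc5 (-1.27 ± 0.24, 3.04e-04), Lig1 (-1.37 ± 0.26, 3.52e-04), Rrm2 (-0.68 ± 0.066, 2.43e-08), Tyms (-0.42 ± 0.14, 0.0348), Tk1 (-1.07 ± 0.35, 0.0332), Dut (-0.80 ± 0.20, 0.00419), Chaf1a (-0.66 ± 0.18, 0.00869) and Uhrf1 (-0.63 ± 0.20, 0.0272). All 14 were below 0.

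From 48 h to 72 h it changed for 9 genes, with Orc6 (0.46 ± 0.14, 0.0345), Mcm3 (0.90 ± 0.30, 0.0419), Mcm4 (0.49 ± 0.15, 0.0312), Mcm5 (0.63 ± 0.20, 0.0398), Rfc5 (0.95 ± 0.32, 0.0444), Lig1 (1.21 ± 0.37, 0.0281), Rrm2 (0.36 ± 0.083, 0.00337), Dut (1.10 ± 0.23, 0.00130) and E2f2 (-0.25 ± 0.076, 0.0284). E2f2 was the 1 gene of these below 0.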

How the results depend on the processing

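All 9 counts of called genes stood within 1.5 times their main value under other size factors, library size scaling and a mean CPM filter. The count of 14 in KO-labelled against WT myoblasts was 1 with the effective length offset, 28 with length and GC trends removed, 27 with only the libraries compared, 9 with DESeq2 and 6 to 9 with 1 library left out. At 48 h, 14 became 6 with the offset, 9 with only the libraries compared and 9 to 13 with 1 left out. At 72 h, 7 became 0 with the offset (edgeR, 9 at an unadjusted p under 0.05), 4 with only the libraries compared and 2 to 7 with 1 left out. For the change of the genotype difference to 48 h, 14 became 8 with the offset and 8 to 15 with 1 left out. For the change to 72 h, 9 became 5 with the offset, 5 without a filter, 3 with only the libraries compared and 3 to 9 with 1 left out. Leaving out 1 of the 2 KO-labelled libraries at 48 h leaves a lone sample, assumed to vary like the other groups. The cause was not tested.

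With the offset, Uhrf1 turned from lower to 0.06 at 48 h and to 0.01 in its change from 24 h, and from 48 h to 72 h in KO-labelled libraries Mcm4 turned to -0.04 and Tyms to 0.22. With length and GC trends removed, Rrm1 turned to 0.10 from 24 h to 48 h in KO-labelled libraries. Scaling by library size alone moved the median of all genes to -0.231 from 24 h to 48 h in WT and to -0.311 in KO-labelled libraries.

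With the replicate number as a block, the counts were 15, 14 and 5 for KO-labelled against WT at the 3 stages, 44 and 36 for the WT steps, 44 and 24 for the KO-labelled steps, and 14 and 7 for the genotype differences. The numbers pair WT myoblasts with WT differentiated myotubes by their correlations, and there the block changed none of the 44 calls. What a shared number stands for is not known in any comparison. Genes at under 1 CPM, such as Orc1, Cdc6 and Mcm10 in fused myotubes, have too few counts to show small differences.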
